A study of Homo sapiens with 91 samples.

Results

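The 10 genes described here encode proteins that restrain mitogen-activated protein (MAP) kinase or G protein signalling. They are the dual-specificity phosphatases DUSP1, DUSP2, DUSP4, DUSP5, DUSP6 and DUSP10, the Sprouty genes SPRY2 and SPRY4, and the regulators of G protein signalling RGS2 and RGS16. They were found by the symbols of their Ensembl identifiers, and all 10 had an entry among the 62710 genes of each line's count table. The 91 RNA-seq libraries came from 3 human tumor cell lines, 35 from the acute lymphoblastic leukemia line MOLT4, 32 from the pancreatic cancer line PSN1 and 24 from the rhabdomyosarcoma line RH4. Cells received KI-CDK9d-32, named in the design text as a degrader of the kinase CDK9, or KB-0742, named there as an inhibitor of it, or DMSO as vehicle, and every line was grown in RPMI medium with fetal bovine serum. MOLT4 was collected at 2, 4 and 8 h with all 3 treatments, PSN1 at 2, 4 and 8 h with no KB-0742 group at 2 h, and RH4 at 4 and 8 h with all 3. There were 4 libraries in every group but 1, the MOLT4 vehicle group at 4 h with replicates 1, 3 and 4. The labels give no doses, so the compounds are compared at matched times as they were used. Each tumor type is represented by 1 line, and the design text names RH1 where the sample labels say RH4. No label says that the libraries of a group came from separate cultures, and the p-values here rest on differences among libraries that may be technical repeats.

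MAP kinases carry signals from receptors to the nucleus, and the dual-specificity phosphatases switch them off by removing both activating phosphates. Sprouty proteins act further upstream, on the route from receptor tyrosine kinases through RAS and RAF to the kinase ERK, and RGS proteins shorten the active state of G protein alpha subunits. Many of these genes are induced by the signals they restrain and so form negative feedback loops. CDK9, the kinase of the elongation factor P-TEFb, releases paused RNA polymerase II into productive elongation.

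The depth of a library, as the sum of its gene counts, ran from 1598283 to 3240753 for MOLT4, from 1998712 to 3227113 for PSN1 and from 1670111 to 3136769 for RH4. Markers of each line's own tumor type were present, with 12 of 12 T-lineage genes above 1 CPM (counts scaled to the library's total) in MOLT4, 10 of 12 epithelial genes in PSN1 and 11 of 12 myogenic genes in RH4. Some markers of the other types were above 1 CPM too. They were 3 T-lineage genes in PSN1 and 3 in RH4, 2 epithelial genes in MOLT4 and 5 in RH4, and 3 myogenic genes in MOLT4 and 2 in PSN1. Equal amounts of spike-in RNA had been added to the lysates, and spike-ins took 11.7% to 61.5% of all counts in MOLT4, 9.87% to 22.4% in PSN1 and 7.51% to 19.2% in RH4. The 3 highest shares were in MOLT4 libraries, all replicate 3, against 11.7% to 37.1% in the other 32. They were 61.5% with KI-CDK9d-32 at 8 h, 49.4% with KB-0742 at 4 h and 39.5% with KI-CDK9d-32 at 4 h. MOLT4 results scaled on the genes themselves were also computed without these 3 libraries, and those scaled on the spike-ins were not. The share of gene counts from mitochondrial transcripts averaged 24.0% with KI-CDK9d-32, 16.6% with KB-0742 and 11.6% with vehicle in MOLT4 at 8 h. In PSN1 at 8 h it averaged 26.4% with KI-CDK9d-32, 26.9% with KB-0742 and 21.9% with vehicle, and in RH4 26.3% with KI-CDK9d-32, 29.9% with KB-0742 and 20.7% with vehicle. Its part in the compound effects was not tested. In bulk RNA, fewer cells of a kind and less RNA per cell cannot be told apart.

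All 10 are protein-coding genes. By GENCODE release 29 (GRCh38), DUSP2 lies at chr2:96143166-96145440 and DUSP1 at chr5:172768090-172771195, both on the minus strand, and they span 2275 and 3106 bp. RGS2 lies on the plus strand at chr1:192809039-192812283, and RGS16 on the minus strand at chr1:182598623-182604408. SPRY2 lies at chr13:80335976-80340951, DUSP6 at chr12:89347232-89353271 and SPRY4 at chr5:142310427-142326455, all on the minus strand. DUSP5 lies on the plus strand at chr10:110497838-110511544, and DUSP10, the longest at 40753 bp, lies on the minus strand at chr1:221701424-221742176. The median span of the 10 was 5913 bp, against 27893 bp over the 14672 genes tested in any line that have a gene model. The libraries hold no strand information, so reads of sequence shared with a gene on the other strand cannot be told apart. The spans of DUSP1, DUSP6, SPRY4 and RGS2 overlap annotated genes on the other strand, and overlap of exons was not computed. Of those genes, AC024909.2 over DUSP6 was given 1043 counts in the 32 PSN1 libraries, against 14416 for DUSP6, and SPRY4-AS1 was given 328, against 29274 for SPRY4.

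Promoter sequences from RefSeq (GRCh38.p14) matched 8 of the 10 genes, and DUSP4 and DUSP5 had no entry. The 150 bases before the start are shown for DUSP1, RGS2 and RGS16, which fell in 2 or 3 of the lines, and for SPRY2, which rose relative to the other genes in 2, so that the contrasted genes can be read beside each other. They are examples. DUSP2 and DUSP6 were also called lower in 2 lines and SPRY4 higher in 2, DUSP6 and SPRY4 with calls in both directions in RH4. Their windows are not shown. All run 5′ to 3′ on the gene's own strand, and capitals mark matches in DUSP1 to a full cyclic AMP response element (TGACGTCA), a further half-site of it read from the other strand (CGTCA) and a TATA box (TATAAA).
DUSP1, chr5:172771196-172771345, minus strand: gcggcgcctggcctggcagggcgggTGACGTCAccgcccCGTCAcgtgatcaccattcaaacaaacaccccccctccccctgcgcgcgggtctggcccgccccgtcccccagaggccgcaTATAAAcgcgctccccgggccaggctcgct
RGS2, chr1:192808889-192809038, plus strand: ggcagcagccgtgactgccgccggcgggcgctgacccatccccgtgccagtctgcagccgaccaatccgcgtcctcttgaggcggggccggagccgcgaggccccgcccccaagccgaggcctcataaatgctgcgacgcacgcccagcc
RGS16, chr1:182604390-182604539, minus strand: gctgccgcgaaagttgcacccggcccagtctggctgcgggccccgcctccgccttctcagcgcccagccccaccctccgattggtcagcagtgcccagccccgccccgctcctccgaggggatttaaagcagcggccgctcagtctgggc
SPRY2, chr13:80341127-80341276, minus strand: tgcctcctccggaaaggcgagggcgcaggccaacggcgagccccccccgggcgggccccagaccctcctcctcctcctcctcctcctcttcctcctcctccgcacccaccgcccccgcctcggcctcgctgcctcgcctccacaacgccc
The last 19 bases of the RGS16 window lie inside its GENCODE exon. The full element of DUSP1 begins 125 bases before the start and its TATA box 30 bases before. Over the 250 bases before the start, on both strands, TGACGTCA was found in 1.65% and TATAAA in 10.7% of 35116 RefSeq windows, and among the 8 matched genes both were found in DUSP1 alone. The half-site TGACG, which the full element contains, was found in 21.2% of windows and in those of DUSP1, SPRY2, SPRY4 and RGS2. CCGGAA, the core bound by ETS factors that ERK phosphorylates, was found in 14.5% of windows and, among these genes, in SPRY2. RefSeq gives SPRY2 3 windows and DUSP10 2, for different starts. Both SPRY2 matches lie before the start shown, and its other windows held no match to these motifs. A match is a description of the letters and says nothing about binding in these cells.

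In vehicle-treated cells the feedback genes differed widely between the lines. Levels per transcript length are given in TPM, which scales each gene's reads to its transcript length and to the library's total, as medians over the 11 MOLT4, 12 PSN1 or 8 RH4 vehicle libraries. In PSN1 the order was DUSP6 (70.9 TPM), RGS2 (37.8), SPRY4 (34.7), DUSP1 (14.2), DUSP2 (8.30), DUSP4 (6.14), RGS16 (5.47), SPRY2 (3.15), DUSP10 (1.19) and DUSP5 (0.703). The DUSP6 range, 49.6 to 96.9 TPM, overlapped that of RGS2, 29.3 to 54.1, and apart from SPRY2 and DUSP10 every other pair of neighbors overlapped too. In RH4 the order was DUSP6 (10.6 TPM), RGS16 (8.78), SPRY4 (8.09), SPRY2 (7.16), DUSP1 (6.92), RGS2 (3.07), DUSP10 (1.84), DUSP4 (1.81), DUSP5 (0.0532) and DUSP2 (0), and neighbors overlapped except DUSP4 and DUSP5. In MOLT4 only DUSP2 (7.25 TPM), DUSP1 (3.23), RGS2 (3.03) and RGS16 (1.84) were above 1 TPM.

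**Figure D1:**
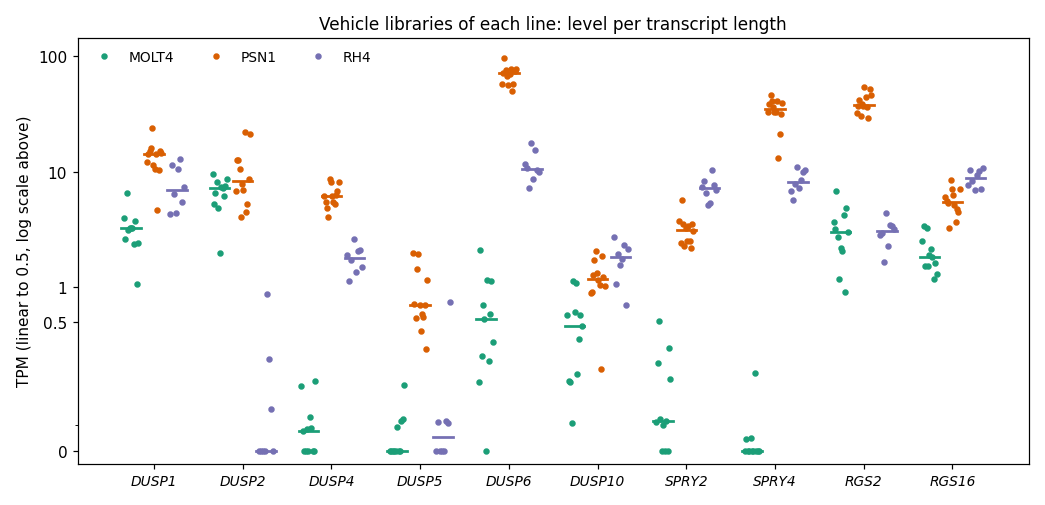
TPM (linear up to 0.5 and log above) of each gene in every vehicle library of MOLT4, PSN1 and RH4, with a bar at the median. DUSP6, SPRY4 and RGS2 are highest in PSN1, DUSP2 is near 0 in RH4, and 6 of the 10 genes are below 1 TPM at the median in MOLT4.

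Differences between lines in vehicle, over the 4 and 8 h groups, were tested with edgeR's quasi-likelihood test in 1 fit of all 91 libraries. All 10 genes were lower in MOLT4 than in PSN1 (edgeR adjusted p under 0.05), where 61.4% of 15881 genes differed in either direction. SPRY4 had the largest log2 difference, -9.58 ± 0.31, and its MOLT4 level at these times rests on 6 counts at 8 h, all in 1 vehicle library, and 1 count at 4 h. DUSP4, DUSP5, DUSP6, DUSP10, SPRY2 and SPRY4 were too low in MOLT4 for that line's own tests. They entered this fit through the lines where they are high, as did DUSP2 and DUSP5 against RH4. A difference from those lines was favored in advance, so the counts of genes given here support nothing. DUSP6 followed at -6.58 ± 0.23, DUSP4 at -6.53 ± 0.35, SPRY2 at -5.10 ± 0.44 and RGS2 at -4.32 ± 0.28. The smallest, DUSP10 at -1.13 ± 0.45 and DUSP2 at -1.04 ± 0.33, were lost when replicate 1, 2 or 3, and when replicate 4, of every group was left out (edgeR adjusted p 0.0444 to 0.101 and 0.00371 to 0.17 over the 4 omissions). Between MOLT4 and RH4, 8 differed beside 59.5% of all genes, of which DUSP2, a phosphatase known from activated lymphocytes, was higher in MOLT4 (5.97 ± 0.61, with 8 counts over 8 RH4 libraries) and the other 7 were lower. The DUSP10 difference of that pair, -1.30 ± 0.44, was lost without replicate 1 (adjusted p 0.0209 to 0.0551). DUSP5, low in both lines of the pair, did not differ by the test (-0.35, edgeR adjusted p = 0.843). Between PSN1 and RH4, 8 differed beside 59.6% of all genes. DUSP2 (7.01 ± 0.57), RGS2 (4.18 ± 0.26), DUSP5 (3.18 ± 0.63), DUSP6 (2.69 ± 0.15), SPRY4 (2.23 ± 0.15), DUSP4 (2.21 ± 0.22) and DUSP1 (1.09 ± 0.26) were higher in PSN1, and SPRY2 was lower (-0.96 ± 0.23). Line, tumor type and culture cannot be told apart in these comparisons.

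The effects of the compounds are given as log2 fold changes ± standard error from 1 edgeR quasi-likelihood fit per line with TMM scaling, which sets each gene against the other genes of the same libraries. Values of single libraries are CPM at the TMM library sizes, in the order of the replicate numbers, and a gene is called where its adjusted p (Benjamini-Hochberg, over all genes of the line that were tested) is under 0.05. A filter on low counts passed 4 of the 10 genes in MOLT4 (DUSP1, DUSP2, RGS2 and RGS16), all 10 in PSN1 and 8 in RH4 (not DUSP2 and DUSP5). A gene that passed through the group where it is high was favored to differ, so the counts that follow describe the genes and are read beside the share of all genes called. Spike-in scaling, which sets a gene against the added RNA, moved the median of all genes below 0 in every compound-against-vehicle comparison, by 0.29 to 2.99 on the log2 scale, and its values are given beside those they change. Between vehicle groups of different times, the edgeR adjusted p was 0.475 or more for each of these genes in each line.

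In MOLT4, KI-CDK9d-32 lowered all 4 tested genes at 2 h, where 9.98% of 11664 genes were called in either direction, 3 at 4 h (32.6%) and 2 at 8 h (49.6%). With KB-0742, 3 were lower at 2 h (26.1% of genes called), 1 was lower and 1 higher at 4 h (35.8%) and 2 were lower at 8 h (49.2%). In PSN1, KI-CDK9d-32 lowered 2 of 10 at 2 h (0.481% of 12471 genes called), lowered 4 and raised 1 at 4 h (7.36%), and lowered 3 and raised 2 at 8 h (20.7%). KB-0742 lowered 2 and raised 3 in PSN1 at 4 h (23.9%), and lowered 2 and raised 2 at 8 h (30.2%). In RH4, KI-CDK9d-32 lowered 1 of 8 at 4 h (5.36% of 12058 genes called), and lowered 1 and raised 1 at 8 h (15.2%). KB-0742 raised 3 in RH4 at 4 h (31.6%), and lowered 2 and raised 1 at 8 h (45.4%). Spike-in scaling called larger shares of all genes lower at 8 h than at the earlier times. With it, 4 members were lower with KI-CDK9d-32 in MOLT4 at each time, beside 1.65% of all genes lower at 2 h, 37% at 4 h and 91% at 8 h. With KB-0742 in MOLT4, 3 were lower at 2 h (19.6% of all genes), 2 at 4 h (50.5%) and 3 at 8 h (54.3%). In PSN1 the degrader KI-CDK9d-32 gave 2 lower at 2 h (0.104%), 6 at 4 h (12.5%) and 7 at 8 h (51.2%), and KB-0742 gave 6 at 4 h (42.3%) and 5 at 8 h (46.8%). In RH4, KI-CDK9d-32 gave 1 lower at 4 h (0.738%) and 7 at 8 h (51.6%), and KB-0742 gave 4 at 4 h (61.9%) and 7 at 8 h (77.9%). The 1 rise it called in these comparisons was that of SPRY4 with KI-CDK9d-32 in PSN1 at 8 h, beside 1.11% of all genes called higher.

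DUSP1, an immediate-early nuclear phosphatase of p38, JNK and ERK, was lower with both compounds in MOLT4. At 2 h its CPM was 0.619, 0, 0 and 0.592 for KI-CDK9d-32, 1.99, 2.18, 1.33 and 0 for KB-0742 and 8.28, 6.11, 14.6 and 6.56 for vehicle. Every treated library lay below every vehicle library, with log2 fold changes of -4.65 ± 0.75 for KI-CDK9d-32 (edgeR adjusted p = 1.56e-05) and -2.65 ± 0.63 for KB-0742 (0.000993). At 4 h the 4 KI-CDK9d-32 libraries held 2 DUSP1 counts in all and the 3 vehicle libraries 79, a ratio of rates of 0.0312 (95% exact interval 0.00371 to 0.116), and KB-0742 gave -2.32 ± 0.70 (adjusted p = 0.00722). At 8 h the compounds parted in value, with 5.24, 3.66, 2.77 and 0.585 CPM for KI-CDK9d-32, 0.452, 1.57, 0 and 1.52 for KB-0742 and 4.90, 8.10, 2.47 and 4.86 for vehicle. KB-0742 libraries stayed below all vehicle libraries (-2.46 ± 0.70, adjusted p = 0.00308), while the KI-CDK9d-32 range overlapped that of vehicle (-0.73, 95% interval -2.0 to 0.53, adjusted p = 0.348). Under spike-in scaling the KI-CDK9d-32 value at 8 h was -3.60 and called (adjusted p = 7.67e-06).

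In PSN1 no DUSP1 comparison with vehicle was called, with KI-CDK9d-32 values of -1.01, -1.11 and 0.01 at 2, 4 and 8 h and KB-0742 values of -1.04 and -0.48 at 4 and 8 h. At 4 h the libraries were at 25.0, 16.5, 6.85 and 20.7 CPM for KI-CDK9d-32, 26.3, 19.7, 3.78 and 23.1 for KB-0742 and 56.1, 27.4, 27.6 and 37.8 for vehicle, and neither treated group overlapped vehicle (edgeR adjusted p = 0.0756 and 0.0538). Under spike-in scaling DUSP1 was lower in PSN1 with both compounds at 4 h (-1.73 and -1.95) and at 8 h (-0.99 and -1.37), each with an adjusted p under 0.05. In RH4, DUSP1 fell with KI-CDK9d-32 at 4 h, at 2.54, 5.96, 5.35 and 5.82 CPM against 8.86, 22.3, 14.2 and 9.48 with vehicle, with no overlap (-1.49 ± 0.34, adjusted p = 0.0063). That call was lost without vehicle replicate 2, the highest vehicle library (adjusted p 0.00588 to 0.0698 over the single-library omissions). At 8 h the KI-CDK9d-32 value was -0.29 (95% interval -0.90 to 0.32, not called), and -1.13, called, under spike-in scaling. With KB-0742 in RH4 the DUSP1 libraries were at 18.2, 8.86, 17.2 and 16.3 CPM at 4 h and 31.0, 14.7, 37.7 and 35.6 at 8 h, beside 21.0, 25.2, 11.8 and 15.5 with vehicle at 8 h. The values were 0.12 at 4 h and 0.69 at 8 h (95% intervals -0.52 to 0.75 and 0.09 to 1.30, adjusted p = 0.812 and 0.0538), and under spike-in scaling they were -0.97 and -0.84, both called lower.

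DUSP2, a nuclear phosphatase of ERK and p38, separated the compounds in MOLT4. With KI-CDK9d-32 its CPM was 2.78, 0.299, 3.08 and 2.07 at 2 h, 2.96, 1.90, 1.00 and 0 at 4 h and 1.97, 4.27, 2.77 and 7.02 at 8 h. With KB-0742 it was 14.0, 7.64, 5.97 and 13.5 at 2 h, 33.2, 15.8, 7.66 and 26.1 at 4 h and 12.6, 15.7, 11.2 and 11.8 at 8 h. With vehicle it was 16.3, 10.0, 12 and 14.0 at 2 h, 8.45, 3.91 and 12.5 at 4 h and 12.3, 10.9, 14.1 and 14.2 at 8 h. KI-CDK9d-32 libraries lay below all vehicle libraries of their time, whereas KB-0742 libraries overlapped vehicle at each time. The KI-CDK9d-32 fold changes were -2.66 ± 0.45, -2.32 ± 0.53 and -1.63 ± 0.46 (edgeR adjusted p = 4.25e-05, 0.000493 and 0.00285). Without the MOLT4 library of the highest spike-in share the 8 h value was -1.48 and still called. KB-0742 gave -0.36 at 2 h (95% interval -1.13 to 0.42), a rise of 1.32 ± 0.43 at 4 h (adjusted p = 0.0122) that was 0.02 and not called under spike-in scaling, and -0.01 at 8 h (-0.78 to 0.77; -1.34, called lower, under spike-in scaling). The rise at 4 h was lost without KB-0742 replicate 1, the highest library, or vehicle replicate 3, the lowest (adjusted p 0.00284 to 0.106).

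In PSN1, DUSP2 fell with KI-CDK9d-32 at 4 h (-2.53 ± 0.56, edgeR adjusted p = 0.00506) and 8 h (-1.80 ± 0.55, 0.0184) and with KB-0742 at 4 h (-1.60 ± 0.54, 0.0285). At 8 h KI-CDK9d-32 libraries were at 7.49, 4.09, 1.81 and 9.97 CPM and vehicle libraries at 9.96, 10.2, 16.9 and 42.6, and the ranges overlapped. At 4 h the libraries were at 3.98, 3.55, 4.69 and 2.63 CPM for KI-CDK9d-32, 2.97, 6.93, 3.78 and 14.5 for KB-0742 and 7.68, 15.6, 14.9 and 48.2 for vehicle, of which vehicle replicate 4 stood far above the rest. The KI-CDK9d-32 call at 4 h held in every single-library omission, with no overlap of the groups. The KB-0742 call was lost in 4 of 8 omissions (KB-0742 replicates 1, 2 and 3 and vehicle replicate 4, adjusted p 0.00677 to 0.245) and the KI-CDK9d-32 call at 8 h in 3 (KI-CDK9d-32 replicates 2 and 3 and vehicle replicate 4, 0.0115 to 0.137). DUSP2 values of -1.61 with KI-CDK9d-32 at 2 h and -0.62 with KB-0742 at 8 h were not called, and under spike-in scaling both were (-1.98 and -1.60). In RH4, DUSP2 had 22 counts in the 24 libraries and was not tested.

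DUSP4, a nuclear phosphatase of ERK and JNK encoded on chromosome 8, rose with KB-0742 in PSN1 relative to the other genes, at 70.4, 87.5, 88.2 and 61.2 CPM against 55.1, 54.0, 42.8 and 38.4 with vehicle at 4 h, and 69.9, 91.3, 73.5 and 52.8 with KB-0742 against 41.8, 42.8, 43.2 and 49.0 with vehicle at 8 h. All KB-0742 libraries were above all vehicle libraries at both times, and the rises were 0.69 ± 0.19 and 0.70 ± 0.19 (edgeR adjusted p = 0.00705 and 0.00507), but under spike-in scaling the sign turned, to -0.16 and -0.15, neither called. With KI-CDK9d-32 the PSN1 values were -0.63, -0.54 and -0.03 at 2, 4 and 8 h, and none was called. The RH4 comparisons of DUSP4 with vehicle gave -0.88 and -0.78 for KI-CDK9d-32 and -0.01 and -0.63 for KB-0742 at 4 and 8 h, none called. Under spike-in scaling DUSP4 was called lower with KI-CDK9d-32 in PSN1 at 4 and 8 h (-1.14 and -1.01) and in RH4 at 8 h (-1.74), and with KB-0742 in RH4 at 4 and 8 h (-1.13 and -2.24). DUSP5, a nuclear phosphatase selective for ERK, was low in PSN1 (355 counts in 32 libraries) and rose with KB-0742 at 4 h by 1.43 ± 0.51 (edgeR adjusted p = 0.0345), with 0.53 and no call under spike-in scaling. Its libraries, 10.9, 8.53, 5.04 and 5.99 CPM with KB-0742 against 5.67, 2.13, 1.52 and 1.96 with vehicle, overlapped at vehicle replicate 1, and the call was lost in 5 of 8 single-library omissions (KB-0742 replicates 1 and 2 and vehicle replicates 2, 3 and 4, adjusted p 0.00857 to 0.118). With KI-CDK9d-32 at 8 h the DUSP5 value was 1.34 (95% interval 0.28 to 2.40, adjusted p = 0.0632).

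DUSP6, the cytoplasmic phosphatase of ERK and one of the genes that ERK activity induces, stayed abundant in PSN1 with KI-CDK9d-32. At 2 h it was at 139, 125, 130.2 and 134 CPM against 175, 196, 241 and 239.7 with vehicle, all lower (-0.69 ± 0.16, edgeR adjusted p = 0.02), a call lost without KI-CDK9d-32 replicate 2 or 3 or vehicle replicate 3 or 4 (adjusted p 0.0135 to 0.107) and under spike-in scaling (0.276). The KI-CDK9d-32 values at 4 and 8 h were -0.19 (95% interval -0.51 to 0.12) and -0.17 (-0.49 to 0.14; -1.13, called lower, under spike-in scaling). KB-0742 gave 0.02 at 4 h (-0.29 to 0.34, and -0.78, called lower, under spike-in scaling), and a fall at 8 h. At 8 h the libraries were at 183, 143, 155 and 142 CPM for KI-CDK9d-32, 94.5, 106, 73.5 and 43.9 for KB-0742 and 150.2, 162, 195 and 193 for vehicle. KB-0742 libraries lay below all others (-1.13 ± 0.16, adjusted p = 9.72e-07).

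In RH4, DUSP6 moved in opposite directions with KB-0742 at the 2 times. At 4 h it was at 19.1, 23.2, 33.9 and 31.5 CPM for KI-CDK9d-32, 90.6, 61.6, 54.5 and 72.3 for KB-0742 and 26.9, 30.8, 24.4 and 40.4 for vehicle, so that every KB-0742 library was above every other. The rise was 1.2 ± 0.20 (edgeR adjusted p = 7.14e-06), and 0.09 with no call under spike-in scaling. At 8 h it was at 27.4, 21.5, 21.3 and 20.3 CPM for KI-CDK9d-32, 14.9, 23.6, 16.5 and 15.7 for KB-0742 and 23, 32.3, 29 and 30.1 for vehicle, a log2 change with KB-0742 of -0.69 ± 0.22 (adjusted p = 0.011) with 1 KB-0742 library inside the vehicle range, and -2.28 under spike-in scaling. The KI-CDK9d-32 values in RH4 were -0.17 and -0.34, not called, and the value at 8 h was -1.26 and called under spike-in scaling. DUSP10, a phosphatase selective for p38 and JNK, was the least often called of the genes that were tested in 2 lines. It was lower in PSN1 with KI-CDK9d-32 at 4 h, with 0.724, 1.29, 1.08 and 0.376 CPM against 6.34, 4.27, 3.94 and 3.64 with vehicle, without overlap (-2.31 ± 0.64, adjusted p = 0.0186). That call rests on 10 counts against 59 and was lost without vehicle replicate 1 or KI-CDK9d-32 replicate 4 (adjusted p 0.0279 to 0.0679). The other 8 DUSP10 comparisons with vehicle ran between -1.45 and 0.14 and were not called, and under spike-in scaling it was lower with KB-0742 in PSN1 at 4 h (-2.34) and in RH4 at 4 and 8 h (-1.90 and -1.37), and with KI-CDK9d-32 at 8 h in both lines (-2.27 in PSN1 and -1.89 in RH4).

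**Figure D2:**
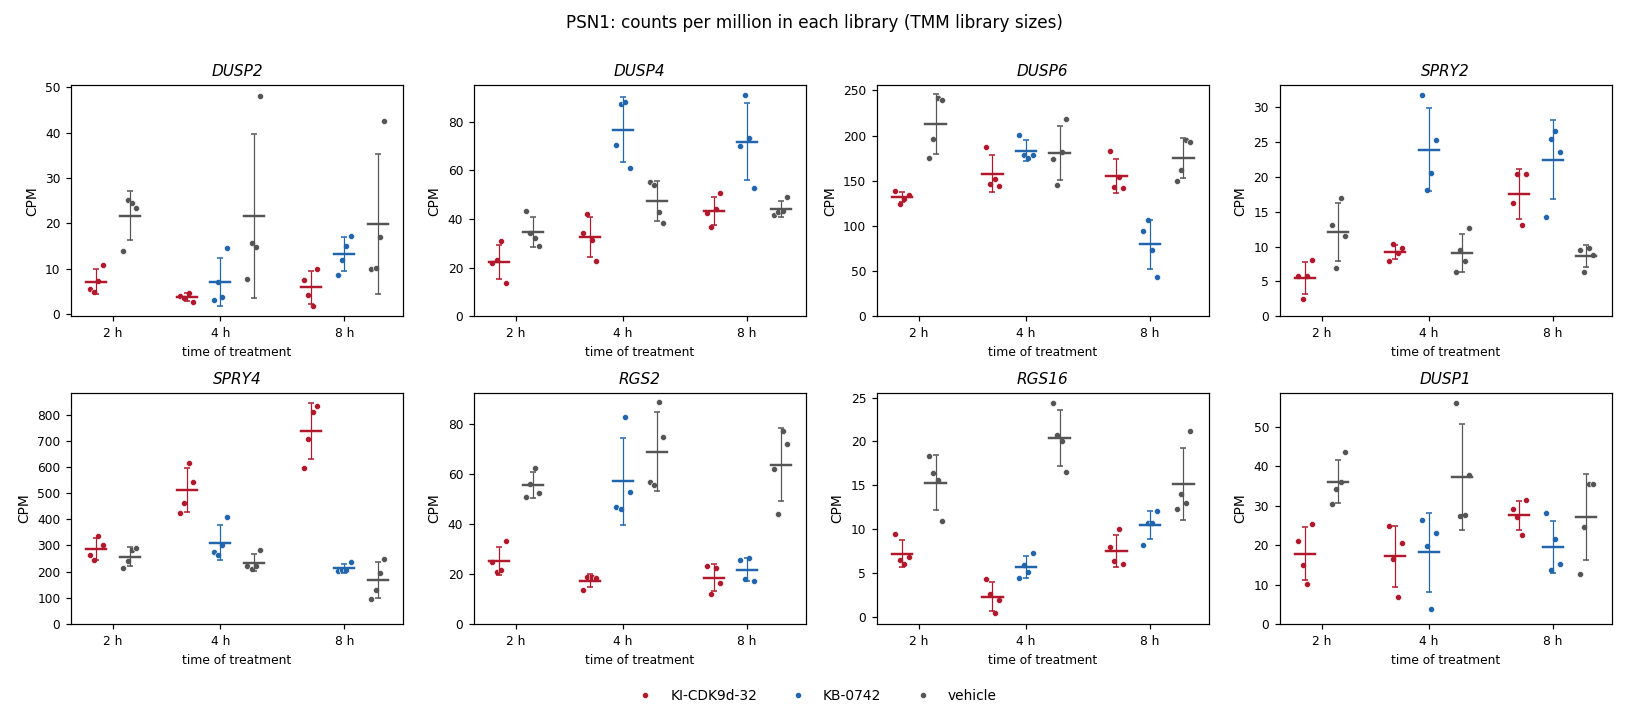
CPM (TMM library sizes) of 8 of the genes in each PSN1 library at 2, 4 and 8 h with KI-CDK9d-32 (red), KB-0742 (blue, no group at 2 h) and vehicle (grey). Bars and whiskers are means ± SD of 4 libraries. SPRY4 stands above vehicle with KI-CDK9d-32 at 4 and 8 h, DUSP4 and SPRY2 stand above it with KB-0742 on this scale alone, since their KB-0742 values against vehicle were not called with spike-in scaling and DUSP4 turned sign. RGS16 lies below vehicle with both compounds, though not called on this scale with KI-CDK9d-32 at 2 h or KB-0742 at 8 h. RGS2 lies below vehicle with KI-CDK9d-32 at each time and with KB-0742 at 8 h.

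SPRY2 and SPRY4, inhibitors of receptor tyrosine kinase signalling to ERK, gave most of the rises. SPRY2 was higher in PSN1 with KB-0742 at 4 h, at 31.7, 18.1, 20.6 and 25.2 CPM against 6.34, 9.45, 7.88 and 12.6 with vehicle, and at 8 h, at 14.2, 25.5, 26.7 and 23.5 with KB-0742 against 9.58, 6.36, 9.76 and 8.80 with vehicle. No KB-0742 library overlapped vehicle, and the rises of 1.39 ± 0.29 and 1.37 ± 0.29 (edgeR adjusted p = 0.000411 and 0.000391) were 0.59 and 0.46 and not called under spike-in scaling. With KI-CDK9d-32 in PSN1, SPRY2 gave -1.15 at 2 h (adjusted p = 0.0757), 0.03 at 4 h and a rise of 1.01 ± 0.30 at 8 h (adjusted p = 0.011) that was 0.03 under spike-in scaling and was lost without vehicle replicate 2 (adjusted p 0.012 to 0.0514). In RH4, SPRY2 at 4 h was at 32.7, 19.5, 27.1 and 19.9 CPM for KI-CDK9d-32, 74.4, 65.5, 41.2 and 66.4 for KB-0742 and 18.9, 19.8, 19.8 and 13.5 for vehicle. At 8 h KI-CDK9d-32 libraries were at 54.4, 26.5, 23 and 42.0, KB-0742 libraries at 46.5, 51.0, 52.4 and 52.2 and vehicle libraries at 13.5, 24.0, 20.1 and 18.0. KB-0742 libraries were above all vehicle libraries at both times, with rises of 1.76 ± 0.23 and 1.42 ± 0.23 (adjusted p = 8.73e-08 and 3.06e-06), which were 0.67 and -0.18 and not called under spike-in scaling. KI-CDK9d-32 gave 0.94 ± 0.23 at 8 h (adjusted p = 0.00293), with 1 library inside the vehicle range and -0.03 under spike-in scaling.

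SPRY4 in PSN1 was the gene that was higher with KI-CDK9d-32 on both scales. Its CPM was 265, 244, 337 and 302 at 2 h, 426, 463, 617 and 541 at 4 h and 598, 708, 811 and 835 at 8 h with KI-CDK9d-32. With KB-0742 it was 274, 262, 301 and 408 at 4 h and 201, 207, 206 and 237 at 8 h, and with vehicle 214, 240.2, 284 and 292 at 2 h, 223, 208, 222 and 283 at 4 h and 94.6, 131, 194 and 250.003 at 8 h. At 4 and 8 h every KI-CDK9d-32 library was above every KB-0742 and vehicle library. Against vehicle the values were 0.16 at 2 h (95% interval -0.24 to 0.55, not called), 1.13 ± 0.19 at 4 h (edgeR adjusted p = 0.000368) and 2.13 ± 0.20 at 8 h (9.40e-09). Under spike-in scaling they were 0.53 at 4 h, not called, and 1.14 at 8 h, called (adjusted p = 0.00131). The calls at 4 and 8 h held in all 8 single-library omissions. Vehicle averaged 234 ± 33.1 CPM at 4 h and 168 ± 68.7 at 8 h (SD, n = 4 each). That difference was not called, though its unadjusted edgeR p was under 0.05, as was that of vehicle at 8 h against 2 h. The difference from 2 h was called with the replicate number as a block. The 8 h fold change is thus taken against the vehicle group with the lower mean. In RH4 at 4 h, SPRY4 was at 45.3, 61.6, 67.8 and 77.8 CPM with KB-0742 against 36.3, 29.2, 44.5 and 61.9 with vehicle, and at 8 h at 29.9, 30.6, 34.8 and 38.1 with KB-0742 against 37.3, 43.5, 55.9 and 55.6 with vehicle. The groups overlapped at both times. It rose at 4 h by 0.58 ± 0.19 (adjusted p = 0.0164), but by spike-in scaling it was -0.46 and not called, and it fell at 8 h by 0.54 ± 0.20 (adjusted p = 0.0264; -2.14 under spike-in scaling). The call at 4 h was lost without vehicle replicate 1 or 2 or KB-0742 replicate 4 (adjusted p 0.00178 to 0.103), and that at 8 h without KB-0742 replicate 1 or 2 or vehicle replicate 3 or 4 (0.00984 to 0.0833). The KI-CDK9d-32 value in RH4 at 8 h was 0.02 (adjusted p = 0.971), and -0.90, called lower (adjusted p = 0.0206), under spike-in scaling.

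RGS2, which acts mainly on Gq alpha subunits, was the gene lowered in the most comparisons, 8 of the 15 in which it was tested. In MOLT4 its CPM at 2 h was 0.309, 0, 0 and 0 for KI-CDK9d-32, 0, 1.45, 0 and 0 for KB-0742 and 4.81, 4.72, 9.62 and 3.58 for vehicle. At 8 h it was 0, 0.610, 0 and 0 for KI-CDK9d-32, 0.452, 0, 0.450 and 0.760 for KB-0742 and 5.45, 1.25, 7.05 and 3.88 for vehicle. No treated library reached the lowest vehicle library at either time. The KI-CDK9d-32 libraries held 1 count against 84 at 2 h, a ratio of rates of 0.0134 (95% exact interval 0.000336 to 0.0770), and 1 count against 56 at 8 h, a ratio of 0.0384 (95% exact interval 0.000955 to 0.223). KB-0742 gave -3.79 ± 0.92 at 2 h and -3.20 ± 0.94 at 8 h (edgeR adjusted p = 0.00129 and 0.00394). At 4 h neither compound was called (-1.72 and -1.23, adjusted p = 0.153 and 0.308), and under spike-in scaling both were lower (-2.62 and -2.76, 0.0298 and 0.0158). Of the 7 RGS2 counts in the KI-CDK9d-32 libraries at 4 h, 6 were in replicate 2, without which the value was -3.69 and called (edgeR adjusted p 0.0225 to 0.314 over the single-library omissions). Intervals of counts cover counting error only, since PCR copies were not marked.

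In PSN1, where RGS2 was among the highest of these genes, it fell with KI-CDK9d-32 at each time. At 2 h it was at 24.9, 20.8, 21.6 and 33.2 CPM against 50.6, 56.0, 62.5 and 52.5 with vehicle, and at 4 h it was at 13.4, 18.7, 18.7 and 18.4 for KI-CDK9d-32, 46.6, 45.9, 82.7 and 52.6 for KB-0742 and 56.7, 55.5, 88.5 and 74.8 for vehicle. At 8 h KI-CDK9d-32 libraries were at 23.3, 11.9, 22.2 and 16.4, KB-0742 libraries at 25.5, 18.1, 26.2 and 17.3 and vehicle libraries at 62.1, 44.1, 76.9 and 71.8. KI-CDK9d-32 libraries lay below all vehicle libraries at each time, and KB-0742 libraries did so at 8 h and overlapped at 4 h. The KI-CDK9d-32 values were -1.14 ± 0.21, -1.99 ± 0.22 and -1.80 ± 0.22 (edgeR adjusted p = 0.00214, 3.87e-08 and 1.80e-07), all kept in every single-library omission. KB-0742 gave -0.27 at 4 h (95% interval -0.69 to 0.14; -1.07, called, under spike-in scaling) and -1.55 ± 0.22 at 8 h (adjusted p = 8.54e-07). In RH4, with 174 RGS2 counts over 24 libraries, values against vehicle ran between -1.63 and 0.10 and none was called, though under spike-in scaling 3 of the 4 were called lower (-2.72 and -1.50 with KB-0742 at 4 and 8 h and -2.27 with KI-CDK9d-32 at 8 h).

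RGS16, which acts on Gi and Gq alpha subunits, was lowered by KI-CDK9d-32 in all 3 lines, at 2 and 4 h in MOLT4, at 4 and 8 h in PSN1 and at 8 h in RH4. In MOLT4 at 2 h it was at 0, 1.49, 0.342 and 0.888 CPM for KI-CDK9d-32, 0.798, 0.364, 1.33 and 3.46 for KB-0742 and 6.41, 9.72, 4.16 and 8.35 for vehicle, with no treated library in the vehicle range (-3.28 ± 0.68 and -2.24 ± 0.63, edgeR adjusted p = 0.000669 and 0.00595). At 4 h the KI-CDK9d-32 libraries held 1 count against 55 with vehicle, a ratio of 0.0224 (95% exact interval 0.000557 to 0.130), while KB-0742 libraries were spread over 0, 9.49, 1.39 and 4.07 CPM (-0.36, 95% interval -1.64 to 0.93). At 8 h the values were 1.31, 1.22, 0 and 1.75 CPM for KI-CDK9d-32, 4.52, 3.14, 5.39 and 3.42 for KB-0742 and 4.63, 3.12, 4.58 and 3.24 for vehicle. The KI-CDK9d-32 libraries were below all others, at -1.72 against vehicle (adjusted p = 0.0515; -4.37, called with 1.63e-06, under spike-in scaling), and KB-0742 was at 0.08 (-1.12 to 1.28). In PSN1 at 4 h RGS16 was at 4.34, 2.58, 0.361 and 1.88 CPM for KI-CDK9d-32, 4.46, 5.87, 5.04 and 7.27 for KB-0742 and 24.4, 20.7, 20.0 and 16.5 for vehicle, again without overlap. Both falls were called, -3.12 ± 0.35 and -1.84 ± 0.32 (adjusted p = 3.87e-08 and 4.14e-05). At 8 h in PSN1 the KI-CDK9d-32 value was -1.01 ± 0.31 (0.0167) and was lost without KI-CDK9d-32 replicate 2 or 4 or vehicle replicate 4 (adjusted p 0.0129 to 0.0915), and that of KB-0742 was -0.55 (0.171; -1.48, called, under spike-in scaling). In RH4 at 8 h the KI-CDK9d-32 value was -0.94 ± 0.28 (0.018) and was lost without KI-CDK9d-32 replicate 1 or 4 or vehicle replicate 4 (0.00406 to 0.0867). KB-0742 in RH4 at 8 h gave 0.16, and -1.43, called lower, under spike-in scaling.

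With the 3 MOLT4 libraries of highest spike-in share left out together, a setting chosen after seeing the data, DUSP2 gave -2.13 and -1.48 for KI-CDK9d-32 (4 and 8 h) and 1.52 for KB-0742 (4 h), each called (edgeR adjusted p = 0.00189, 0.00821 and 0.00327). DUSP1 gave -2.20 with KB-0742 at 4 h and -0.67 with KI-CDK9d-32 at 8 h (adjusted p = 0.0185 and 0.44), and the adjusted p of RGS2 with KI-CDK9d-32 at 8 h was 0.00562. The 8 h difference of RGS16 between the compounds was -1.48 and not called (adjusted p = 0.0983), and RGS16 against vehicle with KI-CDK9d-32 at 8 h was -1.38 (0.134). Between KI-CDK9d-32 and KB-0742, DUSP2 gave -3.66 at 4 h and -1.49 at 8 h (adjusted p = 3.88e-07 and 0.00729), and RGS16 was called at 4 h (0.000206). All 3 libraries are replicate 3, so the line differences without replicate 3 leave them out. Spike-in scaling was not run without them.

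**Figure D3:**
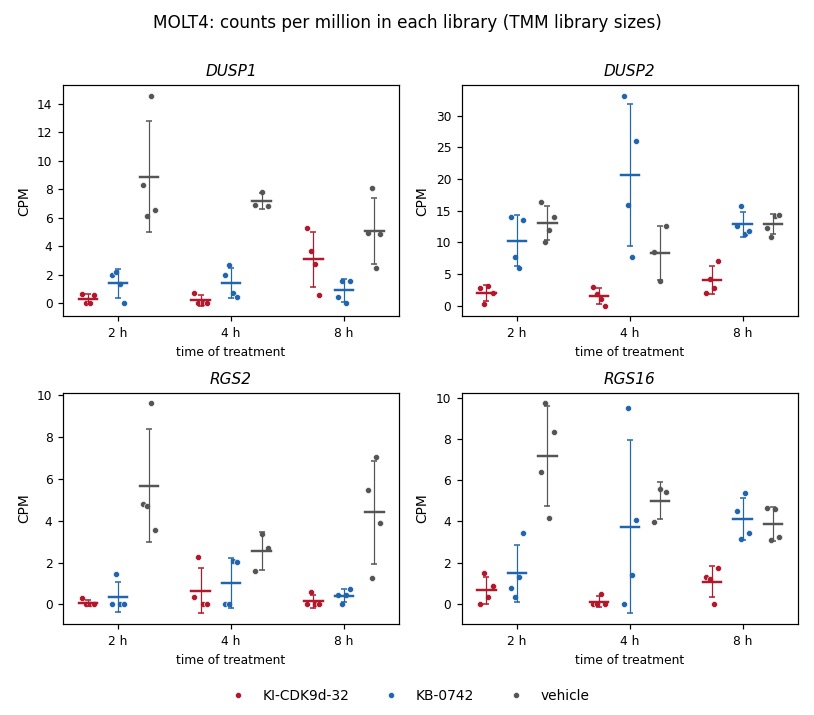
CPM (TMM library sizes) of the 4 tested genes in each MOLT4 library at 2, 4 and 8 h with KI-CDK9d-32 (red), KB-0742 (blue) and vehicle (grey, 3 libraries at 4 h). Bars and whiskers are means ± SD. DUSP2 lies below vehicle with KI-CDK9d-32 and overlaps it with KB-0742, where the called rise at 4 h is absent with spike-in scaling, and DUSP1 and RGS2 lie below vehicle with both compounds at 2 h.

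The 6 genes outside the MOLT4 tests had few counts, and they are given as sums over the 12 KI-CDK9d-32, 12 KB-0742 and 11 vehicle libraries. DUSP6 had 7 counts with KI-CDK9d-32, 13 with KB-0742 and 70 with vehicle, and DUSP10 had 4 with KI-CDK9d-32, 7 with KB-0742 and 59 with vehicle. SPRY2 had 6 with KI-CDK9d-32, 14 with KB-0742 and 18 with vehicle, and DUSP4 had 0 with KI-CDK9d-32, 4 with KB-0742 and 15 with vehicle. SPRY4 had 0 counts with KI-CDK9d-32, 1 with KB-0742 and 8 with vehicle, and DUSP5 had 0 with either compound and 5 with vehicle. These sums are a description with no test, and a sum of 0 allows up to 3 counts. They are not scaled for depth. In the MOLT4 groups at 8 h, 3 counts equal 0.504 CPM with KI-CDK9d-32 and 0.234 with vehicle. How many other untested genes had lower sums with the compounds was not computed. RH4 DUSP5 had 21 counts in 24 libraries.

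The compounds were then compared directly at matched times, for each of the tested genes in 7 such comparisons, with p-values adjusted over all genes of each comparison. In MOLT4, DUSP2 was lower with KI-CDK9d-32 than with KB-0742 at 2 h (-2.30 ± 0.46, edgeR adjusted p = 0.00025), the 1 gene of the 4 called beside 18.3% of all genes. It was also lower at 4 h (-3.64 ± 0.50, 5.54e-08) and 8 h (-1.62 ± 0.47, 0.00286), beside 35.7% and 58.5% of all genes, and no KI-CDK9d-32 library reached a KB-0742 library at any time. Under spike-in scaling the 2 h difference was -1.95 and not called (adjusted p = 0.0671), and the later 2 were called. RGS16 was the second gene at 4 h, with 1 count against 30, a ratio of rates of 0.0272 (95% exact interval 0.000667 to 0.164) with both groups holding libraries at 0. It also differed at 8 h (-1.80 ± 0.76, adjusted p = 0.0384). The RGS16 call at 8 h was lost in 5 of 8 single-library omissions (KB-0742 replicates 1 and 3, KI-CDK9d-32 replicates 1 to 3; adjusted p 0.0386 to 0.102), among them the library with the highest spike-in share (-1.48). DUSP1 at 8 h was 1.73 (95% interval 0.16 to 3.29, adjusted p = 0.0529), higher in value with KI-CDK9d-32, and 0.13 under spike-in scaling. RGS2 did not differ by the test at any time, and at 2 h its interval was -4.47 to 1.00.

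In PSN1 at 4 h, 5 of 10 genes differed between the compounds, beside 17.4% of all genes. RGS2 (-1.72 ± 0.22, edgeR adjusted p = 2.42e-07), SPRY2 (-1.36 ± 0.29, 0.000614), DUSP4 (-1.23 ± 0.20, 1.26e-05) and RGS16 (-1.29 ± 0.39, 0.0156) were lower with KI-CDK9d-32, and SPRY4 was higher (0.71 ± 0.19, 0.00909). Groups did not overlap for these genes, which adds no support, since the same libraries gave the calls. The share of all genes without overlap was not computed. The RGS16 difference was lost without KI-CDK9d-32 replicate 3 or KB-0742 replicate 4 (adjusted p 0.00248 to 0.0782), and spike-in scaling kept RGS2, SPRY2 and SPRY4. At 8 h 3 genes differed, beside 24.8% of all genes. SPRY4 (1.79 ± 0.20, 5.98e-08) and DUSP6 (0.96 ± 0.16, 1.86e-05) were higher with KI-CDK9d-32 and DUSP4 was lower (-0.73 ± 0.20, 0.00482), again without overlap, and spike-in scaling kept SPRY4 (1.74). RGS2, which differed at 4 h, gave -0.25 at 8 h (95% interval -0.73 to 0.24).

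In RH4 at 4 h, 4 of 8 genes were lower with KI-CDK9d-32 than with KB-0742, beside 25.8% of all genes called in either direction. They were DUSP1 (-1.61 ± 0.35, edgeR adjusted p = 0.000533), DUSP6 (-1.37 ± 0.20, 1.38e-06), SPRY2 (-1.32 ± 0.22, 1.84e-05) and RGS16 (-1.31 ± 0.28, 0.000429). Groups did not overlap for these genes, which again adds no support to calls from the same libraries. None of the 4 was called under spike-in scaling (-0.85, -0.54, -0.62 and -0.52, edgeR adjusted p 0.102 to 0.225). At 8 h 3 of 8 differed, beside 38.4% of all genes. DUSP1 (-0.98 ± 0.31, 0.0101) and RGS16 (-1.10 ± 0.30, 0.00307) were lower with KI-CDK9d-32, with 1 KB-0742 library of DUSP1 inside the KI-CDK9d-32 range. Under spike-in scaling neither was called (-0.29 and -0.37). RGS16 libraries were at 7.20, 18.8, 13.9 and 8.19 CPM for KI-CDK9d-32, 28.8, 25.5, 21.2 and 29 for KB-0742 and 22.7, 24.6, 18.6 and 27.5 for vehicle. SPRY4 was higher (0.55 ± 0.20, 0.028), a call lost without KB-0742 replicate 1 or 2 or KI-CDK9d-32 replicate 3 (adjusted p 0.0279 to 0.0775) and kept under spike-in scaling (1.24), which also called DUSP6 higher (1.02). With the doses unknown, these differences are between the treatments as given.

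**Figure D4:**
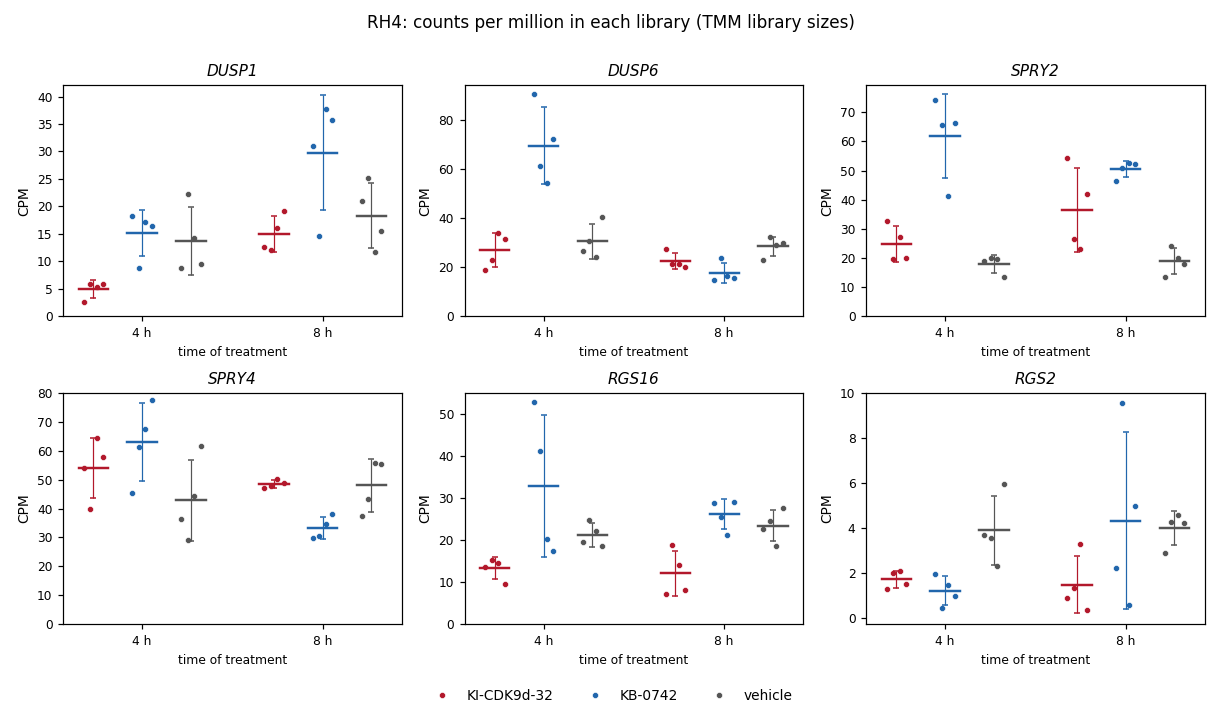
CPM (TMM library sizes) of the genes plotted in each RH4 library at 4 and 8 h with KI-CDK9d-32 (red), KB-0742 (blue) and vehicle (grey). Bars and whiskers are means ± SD of 4 libraries. DUSP6 and SPRY2 stand above vehicle with KB-0742 at 4 h on this scale, rises that were not called with spike-in scaling, and SPRY2 does so at 8 h, where spike-in scaling turned its sign.

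**Figure D5:**
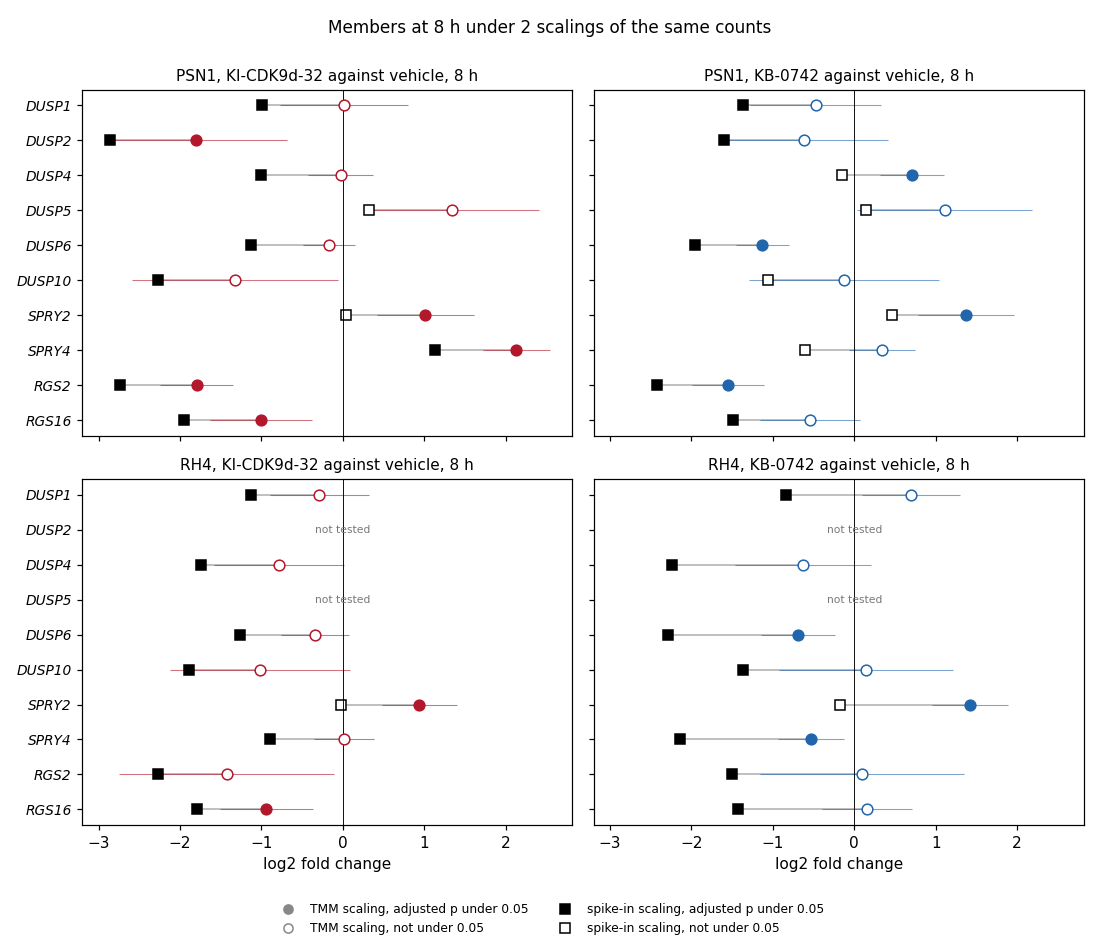
Log2 fold change against vehicle at 8 h of each gene in PSN1 (top) and RH4 (bottom), with KI-CDK9d-32 (left) and KB-0742 (right). Circles are TMM values with 95% intervals and squares are spike-in values of the same counts, filled where the adjusted p is under 0.05. Each square lies left of its circle, and SPRY4 in PSN1 with KI-CDK9d-32 is the gene whose rise is called under both scalings.

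The change of each effect over time was tested next. In MOLT4 none of the 4 genes was called between 2 and 4 h with KI-CDK9d-32 or KB-0742 (beside 3.46% and 3.15% of all genes) or between 4 and 8 h with KB-0742 (17.8%). At an unadjusted edgeR p under 0.05 these 3 comparisons held 1, 2 and 1 of the 4 genes. Without the 3 libraries of highest spike-in share, the KB-0742 effect on DUSP2 was higher at 4 h than at 2 h (1.92, adjusted p = 0.0368) and lower at 8 h than at 4 h (-1.51, 0.0455). From 4 to 8 h with KI-CDK9d-32 (12.5%), DUSP1 was called, as its effect was less low at 8 h (edgeR adjusted p = 0.011), a change that rests on the 2 counts at 4 h and was not called under spike-in scaling (0.0967). That scaling called RGS2 there, with an effect lower at 8 h (-4.03, adjusted p = 0.0217), which rests on the 1 count at 8 h. In PSN1 none of the 10 was called with KI-CDK9d-32 between 2 and 4 h or between 4 and 8 h (0.016% and 0.016% of all genes), with 6 and 4 of the 10 at an unadjusted p under 0.05. This depends on the fit. With the replicate number as a block, SPRY4 was called between 2 and 4 h (0.0722% of all genes), and SPRY4 and RGS16 between 4 and 8 h (0.73%). No label says that a number marks a shared culture or day. With KB-0742 the PSN1 effects on DUSP6 (-1.15 ± 0.22, adjusted p = 0.00269) and RGS2 (-1.28 ± 0.30, 0.0137) were lower at 8 h than at 4 h, beside 1.88% of all genes, and that of RGS2 was lost without KB-0742 replicate 3 at 4 h (adjusted p 0.00631 to 0.0645). Neither was called under spike-in scaling (-1.18 and -1.36, adjusted p = 0.575 and 0.451). In RH4 no gene of any kind was called with KI-CDK9d-32 (0%; 1 of these 8 had an unadjusted edgeR p under 0.05), and with KB-0742 the effects on DUSP6 (-1.89 ± 0.30, 7.02e-05) and SPRY4 (-1.11 ± 0.27, 0.00749) were lower at 8 h, beside 8.52%, and under spike-in scaling too (-2.37 and -1.68).

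Whether a compound's effect differed between lines was tested in the fit of all 91 libraries, for genes tested in both lines with over 3 counts in each of the 4 groups. The differences share treated and control libraries with the results above and are not independent of them. For KI-CDK9d-32, PSN1 and RH4 differed for SPRY4 at 8 h (2.10 ± 0.29, edgeR adjusted p = 1.07e-05), where 0.573% of genes differed, and this held without each replicate number. RGS16 at 4 h differed by -2.46 ± 0.54 (0.0251, beside 0.0756%) and was lost in all 4 omissions of a replicate number (adjusted p 0.0512 to 0.424). None of the tested genes differed between MOLT4 and PSN1 (6.42% and 17.6% of all genes at 4 and 8 h) or MOLT4 and RH4 (5.05% and 16.7%) with KI-CDK9d-32. Over those 4 comparisons 2, 3, 1 and 2 genes could be tested and 0 had an unadjusted edgeR p under 0.05. The count rule left out DUSP1 and RGS16 at 4 h (2 counts and 1 count in the MOLT4 KI-CDK9d-32 group). It also left out RGS2 at 8 h (1 count). These were the deepest MOLT4 falls of their times, and whether they differed between lines was not tested. Under spike-in scaling the effects on DUSP1 and RGS16 at 8 h were lower in MOLT4 than in PSN1 (-2.61 and -2.42, edgeR adjusted p = 0.00239 and 0.00935) and than in RH4 (-2.47 and -2.59, 0.00399 and 0.00463), where that scaling called 49.7% of all genes between MOLT4 and PSN1 and 53.9% between MOLT4 and RH4 and put the median effect over all genes at -2.99 in MOLT4, -1.01 in PSN1 and -0.92 in RH4.

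For KB-0742, MOLT4 and PSN1 differed for DUSP2 at 4 h (2.85 ± 0.70, edgeR adjusted p = 0.00581; 5.44% of all genes), a difference lost without replicate 1 or 3 (adjusted p 0.01 to 0.0727), and for no gene at 8 h (12.3%; 2 of 4 at an unadjusted edgeR p under 0.05). MOLT4 was lower than RH4 in the effect on DUSP1 at 4 h (-2.55 ± 0.75, 0.0437; 2.49%) and 8 h (-3.18 ± 0.75, 0.00195; 9.36%) and on RGS2 at 8 h (-3.25 ± 0.87, 0.00693). Of these, DUSP1 at 8 h held in all 4 omissions, DUSP1 at 4 h was lost without replicate 1, 3 or 4, and RGS2 without replicate 1 or 2 (adjusted p 0.0172 to 0.349 for DUSP1 at 4 h and 0.016 to 0.0907 for RGS2). PSN1 was lower than RH4 at 4 h for RGS16 (-2.49 ± 0.51, 0.00231) and DUSP6 (-1.21 ± 0.29, 0.014), beside 1.38% of all genes. It was higher at 8 h for DUSP4 (1.41 ± 0.47, 0.0478) and SPRY4 (0.94 ± 0.31, 0.0454), beside 7.81%. RGS16 was lost without replicate 1 and the other 3 each without replicate 1, 2 or 3 (adjusted p 0.00833 to 0.105 for RGS16, 0.027 to 0.166 for DUSP6, 0.0251 to 0.285 for DUSP4 and 0.032 to 0.228 for SPRY4). None of the 10 differences called for the 2 compounds was called with spike-in scaling.

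Other genes of the same pathways are described at 8 h with KI-CDK9d-32, where the median log2 fold change of all tested genes was -0.18 in MOLT4, -0.05 in PSN1 and -0.04 in RH4. Of the atypical dual-specificity phosphatases, small enzymes that mostly lack the MAP kinase docking domain, 4 of 8 tested were lower and 1 higher in MOLT4 (median -2.12), 2 of 8 lower in PSN1 (-0.14) and 2 of 7 lower in RH4 (-0.46). DUSP3 (-3.21 ± 0.49) and DUSP12 (-3.17 ± 0.41) were the lowest of them in MOLT4. DUSP11, a phosphatase of RNA 5′ ends, and DUSP14 were lower in both other lines (-1.44 ± 0.30 and -0.98 ± 0.20 in PSN1, -1.03 ± 0.23 and -1.34 ± 0.29 in RH4). Of other MAP kinase phosphatases and their relatives, DUSP7 and STYXL1 were tested in MOLT4 and PSN1, and STYXL1 alone in RH4. In MOLT4 1 of the 2 was lower (DUSP7, -2.15 ± 0.59), and STYXL1 was at -0.12 and not called. In PSN1 0 of 2 and in RH4 0 of 1 were called (0 at an unadjusted edgeR p under 0.05). Among other RGS genes, 3 of 3 were lower in MOLT4 (median -2.32; RGS14 -3.21 ± 0.54 and RGS19 -2.32 ± 0.24), 2 of 9 were lower and 1 higher in PSN1 (median -0.90; RGS14 -1.57 ± 0.53 and RGS5 2.51 ± 0.84), and 0 of 5 were called in RH4 (3 at an unadjusted edgeR p under 0.05). SPRED2, a Sprouty-related inhibitor of RAS, was higher in PSN1 on both scales (2.03 ± 0.18, and 1.04 with spike-in scaling), the 1 of 4 other Sprouty and SPRED genes called there. In MOLT4 it was 1.22 ± 0.25 but -1.66 with spike-in scaling, beside a lower SPRY1 (-1.91 ± 0.68), and 0 of 2 were called in RH4 (0 at an unadjusted p under 0.05).

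Of the RAS-RAF-MEK-ERK cascade itself, 1 gene was higher and 3 lower of 17 in MOLT4 (median 0.17), 3 higher and 3 lower of 18 in PSN1 (0.04), and 0 of 20 were called in RH4 (0.03; 4 at an unadjusted edgeR p under 0.05). The kinase BRAF was lower in MOLT4 (-1.96 ± 0.41) and PSN1 (-1.33 ± 0.40), as was the scaffold KSR1 in PSN1 (-1.95 ± 0.56), and MAPK3, which encodes ERK1, was 1.18 ± 0.30 in MOLT4 but -1.52 with spike-in scaling. Of the JNK and p38 cascades, 5 of 13 were lower and 1 higher in MOLT4 (MAPK13, 2.96 ± 0.96, rose, and MAP3K1, with 0 counts against 25, was at least 3.88-fold lower at a floor of 3 counts for the group), 2 of 14 lower and 1 higher in PSN1 (MAP2K4 -2.68 ± 0.65 and MAP3K4 -1.23 ± 0.30) and 1 of 11 lower in RH4 (MAP2K7, -2.94 ± 0.86). Of other output genes of ERK, 4 of 5 were higher in MOLT4 (median 1.90, and -0.82 with spike-in scaling), with FOS at 5.81 ± 0.99 and EGR1 at 4.46 ± 0.73. These rest on few vehicle counts, with 110 against 4 for FOS and 130 against 12 for EGR1. In PSN1 5 of 15 were higher (median 0.50, and -0.46 with spike-in scaling), with SPRED2 and FOS (1.23 ± 0.37) the most. In RH4 1 of 10 was higher (CCND1, 0.77 ± 0.18, but -0.12 with spike-in scaling) and 1 lower (EPHA2, -0.68 ± 0.22).

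Of the ERK-linked transcription factors and MAPK-activated kinases, 3 of 12 were lower and 1 higher in MOLT4, with RPS6KA1 at -2.88 ± 0.70 and RPS6KA2 at 1.81 ± 0.63 (-1.06 with spike-in scaling). In PSN1 3 of 13 were lower (MKNK2 -1.40 ± 0.38, CREB1 -0.88 ± 0.26), and in RH4 1 of 13 was higher (RPS6KA2 0.84 ± 0.28, but -0.02 with spike-in scaling). Of the G protein alpha subunits on which RGS proteins act, 3 of 7 were higher and 2 lower in MOLT4, with GNAQ at 2.00 ± 0.30 (-0.85 with spike-in scaling) and GNAI3 at -1.68 ± 0.19. GNAS was the 1 of 8 called in PSN1 (0.38 ± 0.14) and the 1 of 9 in RH4 (0.41 ± 0.09), and its sign turned with spike-in scaling in both (-0.60 and -0.48). Each of these counts is at an edgeR adjusted p under 0.05, beside 49.6%, 20.7% and 15.2% of all genes in MOLT4, PSN1 and RH4. Of the 37 values named from these lists, 2 of 17 in MOLT4, 6 of 13 in PSN1 and 3 of 7 in RH4 lost their call in at least 1 single-library omission. In MOLT4, RPS6KA2 lost it without KI-CDK9d-32 replicate 1 or vehicle replicate 4 (adjusted p 0.0044 to 0.0709) and SPRY1 lost it without KI-CDK9d-32 replicates 1 or 2 or vehicle replicate 1 (adjusted p 0.00332 to 0.0879). In PSN1, BRAF lost it without KI-CDK9d-32 replicate 2 (adjusted p 0.00736 to 0.0644), FOS lost it without KI-CDK9d-32 replicate 4 or vehicle replicates 2 or 4 (adjusted p 0.00411 to 0.0938), GNAS lost it without KI-CDK9d-32 replicates 2, 3 or 4 or vehicle replicates 1, 2 or 3 (adjusted p 0.00682 to 0.171), KSR1 lost it without KI-CDK9d-32 replicate 2 (adjusted p 0.00215 to 0.0538), RGS14 lost it without KI-CDK9d-32 replicates 1, 3 or 4 or vehicle replicates 3 or 4 (adjusted p 0.00515 to 0.103) and RGS5 lost it without KI-CDK9d-32 replicates 1, 2 or 3 or vehicle replicates 1, 2 or 4 (adjusted p 0.0268 to 0.0949). In RH4, EPHA2 lost it without KI-CDK9d-32 replicate 4 or vehicle replicates 3 or 4 (adjusted p 0.0261 to 0.182), MAP2K7 lost it without KI-CDK9d-32 replicate 4 (adjusted p 0.021 to 0.0676) and RPS6KA2 lost it without KI-CDK9d-32 replicates 1 or 3 or vehicle replicates 1, 3 or 4 (adjusted p 0.0136 to 0.143).

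The genes whose patterns were most like those of the 3 genes tested in every line were found over the 23 group means, each line centered on its own mean, among 5417 genes. DUSP1 was most like ZFP36L1 (Pearson r = 0.81), DDIT3 (0.73) and CSRNP2 (0.71). RGS2 was most like LINC00680 (0.79), ZNF75A (0.79) and SNHG12 (0.77), and RGS16 was most like INTS5, ZSCAN32 and SPECC1L (0.83 each). The 23 points share lines, treatments and library depths, so these values are a description.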

How the data were processed

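Libraries were made with SMART-seq2 and Nextera XT from total RNA of lysed cells that had received equal spike-in RNA, per the labels' protocols. The submitters' processing notes name Salmon and hg38, with no versions. The authors deposited, for each line, a table of estimated counts per gene rounded to whole numbers and a table of log2(TPM + 1), scaled with the spike-ins included. The 10 members and all gene lists were chosen with earlier results of these data known.

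The deposited estimated counts of each line were fitted together with edgeR 4.0.16 (R 4.3.3), and 1 joint fit of all 91 libraries gave differences between lines, with TMM scaling, robust quasi-likelihood tests and Benjamini-Hochberg adjustment at 0.05. The 99 spike-in entries and 47 duplicate Y pseudoautosomal entries were left out. The filter (filterByExpr, minimum count 10) kept 11664 genes for MOLT4, 12471 for PSN1 and 12058 for RH4, and removed 0.437%, 0.584% and 0.683% of the counts. The standard error is the log2 fold change divided by the square root of F. Where a group held 1 to 3 counts a ratio of summed rates with an exact interval is given, and against 0 counts a bound at a floor of 3. TPM levels were taken from the authors' log2 values.

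Alternatives were spike-in library sizes, relative log expression scaling, DESeq2 1.42.0, limma 3.58.1 on the deposited log2 values, no filter, a replicate block and each library left out. The script was tested on simulated data. Genes were named as the 10 members, the 3 genes most like each member tested in every line (mean log2 CPM of at least 3), and up to 2 genes of each pathway list with the largest called changes at 8 h with KI-CDK9d-32. Symbols and positions came from GENCODE release 29.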

Additional observations from a re-analysis of the deposited data

Results flagged for a closer look

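Of 160 groups of 4 libraries in which a gene was examined for 1 library far from the others, 14 held one. Chance gives about 1 in 20 such groups where values do not tie, a rate that does not hold for counts near 0. In MOLT4, 6 of the 14 rest on 7 counts or fewer in the group, and in 5 of these 1 library held all of the counts, so that it stands apart by construction. DUSP1 was at 0.741 CPM in KI-CDK9d-32 replicate 1 at 4 h, and RGS16 was at 0.50 CPM in KI-CDK9d-32 replicate 3 at 4 h, each with the other libraries at 0. RGS2 was at 0.309 CPM in KI-CDK9d-32 replicate 1 at 2 h, 1.45 in KB-0742 replicate 2 at 2 h, 2.28 in KI-CDK9d-32 replicate 2 at 4 h and 0.610 in KI-CDK9d-32 replicate 2 at 8 h.

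In PSN1, DUSP5 stood high at 9.47 CPM in KI-CDK9d-32 replicate 4 at 8 h and at 5.67 in vehicle replicate 1 at 4 h, DUSP6 at 200.8 in KB-0742 replicate 1 at 4 h and SPRY4 at 237 in KB-0742 replicate 4 at 8 h. RGS2 stood low at 13.4 CPM in KI-CDK9d-32 replicate 1 at 4 h, as did DUSP2 at 13.8 in vehicle replicate 1 at 2 h. In RH4, DUSP6 stood high at 27.4 CPM in KI-CDK9d-32 replicate 1 at 8 h, and SPRY2 low at 13.5 in vehicle replicate 4 at 4 h.

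A compound's effect differed between lines, by edgeR's test of the difference, in 10 cases, none of them called with spike-in scaling. For KI-CDK9d-32, the PSN1 effect minus the RH4 effect was -2.46 for RGS16 at 4 h and 2.10 for SPRY4 at 8 h. For KB-0742 the MOLT4 effect minus the PSN1 effect was 2.85 for DUSP2 at 4 h. The MOLT4 effect of KB-0742 minus the RH4 effect was -2.55 for DUSP1 at 4 h, -3.18 for DUSP1 at 8 h and -3.25 for RGS2 at 8 h. The PSN1 effect of KB-0742 minus the RH4 effect was -1.21 for DUSP6 and -2.49 for RGS16 at 4 h, and 1.41 for DUSP4 and 0.94 for SPRY4 at 8 h.

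An effect differed between times, by the same test, in 5 cases, each given as the effect at 8 h minus that at 4 h. In MOLT4 the KI-CDK9d-32 effect on DUSP1 differed by 4.03, a fitted value that rests on the 2 counts of the 4 h group. In PSN1 the KB-0742 effects differed by -1.15 for DUSP6 and -1.28 for RGS2. In RH4 the KB-0742 effects differed by -1.89 for DUSP6 and -1.11 for SPRY4. With spike-in scaling the RH4 differences were called and those in MOLT4 and PSN1 were not.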

How the results depend on the processing

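The counts of these members called were recomputed under each setting run for a comparison, and shares of all genes called in either direction under the same setting stand in parentheses. For the compound comparisons, 149 member values kept their direction and side of the threshold with DESeq2 and 5 were newly called, 153 kept both with relative log expression scaling and 1 was newly called, and 151 kept both without the count filter, with 2 newly called and 1 lost. DESeq2 called 4 members (1.01% of all genes), against 2 by edgeR, in PSN1 with KI-CDK9d-32 against vehicle at 2 h. Spike-in scaling kept 269 member values, turned 13, lost 34 calls and added 34, and limma kept 112, turned 4, lost 13 calls and added 25. By construction spike-in scaling sets a gene against the added RNA, where TMM scaling sets the gene against the other genes.

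With spike-in scaling the members called against vehicle with KI-CDK9d-32 at 8 h were 4 for MOLT4 (91.8%), 8 for PSN1 (52.3%) and 7 for RH4 (52.3%), and with KB-0742 at 8 h in RH4 7 (78.9%). Between KI-CDK9d-32 and KB-0742 they were 0 in MOLT4 at 2 h (4.16%), 3 and 1 in PSN1 at 4 and 8 h (10.6% and 12.2%), and 0 in RH4 at 4 h (35.5%). The change of the KB-0742 effect in PSN1 between 4 and 8 h held 0 members (0.016%). Line differences held 0 members for KB-0742 in MOLT4 against PSN1 at 4 h (0.919%), in MOLT4 against RH4 (0.164% and 0.705%) and in PSN1 against RH4 (0.0126% and 1.57%) at 4 and 8 h, and 0 for KI-CDK9d-32 in PSN1 against RH4 at both times (0% and 0.063%). They held 2 for KI-CDK9d-32 at 8 h in MOLT4 against PSN1 (49.7%) and 2 in MOLT4 against RH4 (53.9%).

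Directions that turned to below 0 with spike-in scaling were, for KB-0742 against vehicle in PSN1, DUSP4 at 4 and 8 h (-0.16 and -0.15) and DUSP6 at 4 h (-0.78). In RH4 with KB-0742 they were DUSP1 (-0.97) and SPRY4 (-0.46) at 4 h, and DUSP1 (-0.84), DUSP10 (-1.37), SPRY2 (-0.18), RGS2 (-1.50) and RGS16 (-1.43) at 8 h. With KI-CDK9d-32 at 8 h they were DUSP1 (-0.99) and GNAS (-0.60) in PSN1, SPRY2 (-0.028), SPRY4 (-0.90), CCND1 (-0.12), GNAS (-0.48) and RPS6KA2 (-0.016) in RH4, and GNAQ (-0.85), MAPK3 (-1.52), RPS6KA2 (-1.06) and SPRED2 (-1.66) in MOLT4. The settings for CCND1, GNAQ, GNAS, MAPK3, RPS6KA2 and SPRED2, which are not among the 10 members, were added after seeing the data.

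The limma test on the deposited log2 TPM values, which were scaled with the spike-ins included, called 4 members in MOLT4 (81.7%) and 5 in RH4 (38.9%) with KI-CDK9d-32 at 8 h, 3 in RH4 with KI-CDK9d-32 at 4 h (6.95%) and 5 in RH4 with KB-0742 at 8 h (66.7%). It turned DUSP6 (-0.59) in PSN1 and SPRY4 (-0.14) in RH4 with KB-0742 at 4 h, and RGS2 (-0.79) and RGS16 (-0.77) in RH4 with KB-0742 at 8 h. With KI-CDK9d-32 at 8 h it turned MAPK3 (-0.44) and SPRED2 (-0.30) in MOLT4 and GNAS in PSN1 (-0.21) and RH4 (-0.18). Without the 3 MOLT4 libraries of highest spike-in share, a setting added after seeing the data, 1 member differed between KI-CDK9d-32 and KB-0742 at 8 h (57.2%), 1 changed with KB-0742 between 2 and 4 h (3.6%), 1 with KB-0742 between 4 and 8 h (19.1%), and 2 with KI-CDK9d-32 between 4 and 8 h (12.3%).

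With the replicate number as a block, members called were 4 in PSN1 with KI-CDK9d-32 against vehicle at 2 h (1.11%), 1 for the KB-0742 change in MOLT4 between 2 and 4 h (DUSP2, 4.1%), 1 for the KI-CDK9d-32 change in PSN1 between 2 and 4 h (SPRY4, 0.0722%), 2 for that between 4 and 8 h (SPRY4 and RGS16, 0.73%), and 1 between PSN1 vehicle at 8 h and at 2 h (SPRY4, 0.241%). It lost no call of a member. The labels do not say that a number marks a shared culture or day, and same-numbered libraries of different groups did not all deviate together, with correlations over 0.1 for 21 of 136 pairs in MOLT4, 80 of 112 pairs in PSN1 and 26 of 60 pairs in RH4. Still, 30 of 35, 29 of 32 and 23 of 24 libraries correlated best with their own number, a hint from the data and not from the design.

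Leaving out 1 library, or 1 replicate number for the line differences, gave these ranges of members called. Each omission was run with TMM scaling alone. Against vehicle they were 1 to 3 in PSN1 with KI-CDK9d-32 at 2 h and 3 to 5 at 8 h, 0 to 1 in RH4 with KI-CDK9d-32 at 4 h and 1 to 2 at 8 h, 1 to 2 in MOLT4, 3 to 5 in PSN1 and 2 to 5 in RH4 with KB-0742 at 4 h, and 2 to 4 in RH4 with KB-0742 at 8 h. Between the compounds they were 1 to 2 at 2 h and 1 to 3 at 8 h in MOLT4, and 2 to 4 at 8 h in RH4. Changes over time gave 0 to 1 for each of the KB-0742 changes in MOLT4 and the KI-CDK9d-32 changes in PSN1, and 1 to 2 for KB-0742 in PSN1, and vehicle in PSN1 at 8 h against 2 h gave 0 to 1. For KB-0742 the line differences gave 0 to 1 in MOLT4 against PSN1 at 4 h, 0 to 1 and 1 to 2 in MOLT4 against RH4 at 4 and 8 h, and 0 to 2 and 0 to 2 in PSN1 against RH4, and for KI-CDK9d-32 in PSN1 against RH4 at 4 h they gave 0 in each omission.

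Depth limits the 6 members too low for the MOLT4 tests and DUSP2 and DUSP5 in RH4, where a sum of 0 allows up to 3 counts. DESeq2, limma, relative log expression scaling and the unfiltered table were run for the compound comparisons alone.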
